A study of Mus musculus with 12 samples.

Results

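The mitochondrial ribosomal protein genes were taken from the count table by symbol, as all rows whose name begins with Mrpl or Mrps followed by a number and at most 1 letter. That gave 77 genes of the 48795 rows, 48 with an Mrpl symbol and 29 with an Mrps symbol. They were measured by RNA sequencing of the piriform cortex, the cortical area that receives the main output of the olfactory bulb. The mice were on a C57BL/6 background and 12 months old. There were 6 animals heterozygous for the Q140 knock-in of Htt, a model of Huntington's disease whose allele carries an expanded CAG repeat, and 6 wild types. Each genotype had 3 males and 3 females. The comparison of Q140 with wild type cortex asks which transcripts differ in this model, and here it is read for the mitochondrial ribosome.

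Mitochondria carry their own ribosome, which translates the few messages encoded by mitochondrial DNA, all of them for membrane subunits of the respiratory chain and ATP synthase. Its RNAs come from mitochondrial DNA, whereas every one of its proteins is encoded in the nucleus, made on cytosolic ribosomes and imported. The small subunit, 28S, holds the decoding site, and the large subunit, 39S, joins the amino acids and releases the chain beside the inner membrane. Many of its proteins descend from bacterial ribosomal proteins, and others are found in mitochondrial ribosomes alone. Neurons depend on oxidative phosphorylation, and mutations of several of these genes in humans cause disease with brain involvement.

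The symbols do not name the subunits without error. By the known structure of the mammalian particle, 50 of the 77 genes encode 39S proteins, among them Mrps30 and Mrps18a despite their names, and 26 encode 28S proteins. Mrps36 encodes a small subunit of the 2-oxoglutarate dehydrogenase complex and is no ribosomal protein, but it is kept here as a member by symbol. Of the 76 ribosomal members, 46 are classed here as having a bacterial counterpart and 30, with Mrps18a and Mrps18b among them, as mitochondria-specific. Among mitoribosomal genes that carry other symbols, a list of 5 (Dap3, Aurkaip1, Chchd1, Ptcd3 and Gadd45gip1) is described with the companion lists, and Ict1 beside it. The members lie on 17 chromosomes, up to 10 of them on chromosome 11, and 0 on X or Y. In the annotation used, 41 of the 77 overlap another gene, 35 of them a gene on the opposite strand, and 3 have a named pseudogene; for these the split of reads between neighbours or copies is uncertain.

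The promoters of the members were searched for short sequence elements, and those of Mrpl33 and Mrps11, the members with the smallest p in the genotype comparison below, are printed with those of Mrps12, Mrpl43 and Mrpl32, whose starts lie close to the start of a neighbour on the other strand. The windows are from RefSeq on GRCm38.p6, 300 bases each, from 250 before to 50 after the annotated start, 5′ to 3′ on the gene's strand. Capitals mark exact matches to 3 motifs known from promoters of nuclear genes for mitochondria. These are the palindrome bound by NRF1, which is the second stretch of capitals in the Mrpl32 window, CCGGAAG for the ETS family to which GABP belongs, and AAGATGGC for YY1. Each was searched on both strands, so that GCCATCTT is the YY1 motif on the other strand. Mrpl33 (chr5:31613701-31614000, plus strand) holds 1 ETS motif, Mrps11 (chr7:78782881-78783180, plus strand) 1 YY1 motif, Mrps12 (chr7:28741772-28742071, minus strand) 1 ETS and 1 YY1 motif, Mrpl43 (chr19:45006393-45006692, minus strand) 2 ETS motifs, and Mrpl32 (chr13:14612988-14613287, minus strand) 1 YY1 and 1 NRF1 motif.
Mrpl33: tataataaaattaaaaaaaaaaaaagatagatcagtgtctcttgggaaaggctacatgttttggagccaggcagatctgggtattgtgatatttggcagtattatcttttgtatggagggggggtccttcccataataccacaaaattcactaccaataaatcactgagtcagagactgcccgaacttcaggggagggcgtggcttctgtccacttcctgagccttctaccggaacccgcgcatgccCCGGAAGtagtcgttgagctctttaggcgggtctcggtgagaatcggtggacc
Mrps11: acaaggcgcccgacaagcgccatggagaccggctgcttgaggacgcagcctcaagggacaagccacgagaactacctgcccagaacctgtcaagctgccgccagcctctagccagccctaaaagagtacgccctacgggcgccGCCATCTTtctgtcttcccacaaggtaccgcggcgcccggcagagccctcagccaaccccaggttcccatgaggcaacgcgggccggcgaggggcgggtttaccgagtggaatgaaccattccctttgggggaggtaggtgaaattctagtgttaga
Mrps12: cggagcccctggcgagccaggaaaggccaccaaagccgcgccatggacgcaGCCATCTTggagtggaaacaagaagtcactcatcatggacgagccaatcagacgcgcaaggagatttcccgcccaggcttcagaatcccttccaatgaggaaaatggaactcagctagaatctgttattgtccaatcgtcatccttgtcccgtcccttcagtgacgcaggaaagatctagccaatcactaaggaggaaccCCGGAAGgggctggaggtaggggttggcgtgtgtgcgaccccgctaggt
Mrpl43: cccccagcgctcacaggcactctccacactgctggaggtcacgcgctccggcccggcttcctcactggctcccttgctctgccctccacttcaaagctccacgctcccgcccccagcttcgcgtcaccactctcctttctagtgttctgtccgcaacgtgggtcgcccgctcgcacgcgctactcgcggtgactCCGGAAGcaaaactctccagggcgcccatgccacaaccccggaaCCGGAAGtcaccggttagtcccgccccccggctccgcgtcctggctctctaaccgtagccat
Mrpl32: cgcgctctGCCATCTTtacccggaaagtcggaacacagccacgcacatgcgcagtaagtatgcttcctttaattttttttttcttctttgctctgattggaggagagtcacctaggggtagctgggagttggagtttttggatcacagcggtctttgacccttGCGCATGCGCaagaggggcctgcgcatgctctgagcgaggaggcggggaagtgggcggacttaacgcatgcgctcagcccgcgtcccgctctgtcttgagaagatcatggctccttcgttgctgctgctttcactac

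RefSeq windows were matched by symbol for 68 of the 77 members, 74 windows in all. An ETS motif was present in 25 of them (33.8%, against 8.86% of all 32851 promoter windows of the same length), a YY1 motif in 12 (16.2% against 2.75%) and an NRF1 motif in 3 (4.05% against 0.971%). At least 1 of the 3 was found in 36 windows, 48.6% of the members' and 11.9% of all, and no 2 motifs overlapped in a member's window. The members' windows were also richer in G and C, with a median of 58.5% against 52.7%, and held a median of 21.5 CpG dinucleotides against 7.0. Such a match describes these letters and not a bound site. Many members start close to the start of a gene on the other strand. For 33 of the 77 (42.9%, against 14.6% of the 14596 protein-coding genes tested) a protein-coding gene began on the opposite strand within 1000 bases upstream or downstream of the start. Mrpl46 and Mrps11 are such a pair, 412 bases apart, so that both genes of the pair are members. Others are joined to respiratory chain genes, as Mrpl36 to Ndufs6 (29 bases) and Mrpl47 to Ndufb5 (615 bases). Mrpl43 is joined to Twnk, the helicase of mitochondrial DNA (779 bases), and Mrps12 to Sars2, the mitochondrial seryl-tRNA synthetase (172 bases).

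All 77 members passed the expression filter that kept 17725 genes, with between 50 and 2316 reads per gene and animal. The libraries held from 19587208 to 35198602 reads in all, and the members together took between 0.170% and 0.185% of the reads in Q140 animals and between 0.165% and 0.171% in wild types. These shares are not corrected for library composition. In CPM (counts scaled to a fixed library size), which is corrected, the members summed to between 1683 and 1794 in Q140 animals. In wild types the sum lay between 1662 and 1739 CPM, so the genotypes overlapped. The targeted gene, Htt, lay between 143 and 164 CPM in Q140 cortex and between 180 and 204 CPM in wild types. Summed markers of neurons lay between 5780 and 6900 CPM in Q140 animals and between 7260 and 8250 CPM in wild types, without overlap, and 4 of the 6 neuron markers fell. Those of oligodendrocytes lay between 3400 and 4830 CPM in Q140 animals and between 2890 and 4110 CPM in wild types, and 3 of 5 rose. Of the other lists, 1 of 5 astrocyte markers fell, 1 of 5 microglia markers rose, and 0 of 5 endothelial, 7 meningeal, 3 tested choroid plexus and 5 red blood cell markers passed (edgeR). Estimates were positive for all 7 meningeal, 5 endothelial and 5 red blood cell markers, and for 2 of 3 choroid plexus markers. Summed meningeal markers were uneven between animals, from 55.9 to 162 CPM in Q140 and from 14.7 to 161 CPM in wild types. No marker had a median of 0. In bulk tissue fewer cells of a type and less RNA per cell cannot be told apart, and the part that these shifts play in the members' values was not tested.

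Levels of the members in this cortex were compared per length, in the FPKM (reads scaled by gene length and library size) that the authors deposited. The median member stood at 10.1 FPKM. The highest was Mrpl41, a mitochondria-specific protein of the large subunit, with a mean of 32.0 FPKM over the 12 animals and values from 28 to 33.9 in Q140 and from 30.1 to 34.0 in wild types. It was followed by Mrpl42 at 29.1 FPKM, Mrps21 at 26.3 and Mrpl4 at 25.1. Mrpl42 ranged from 25 to 35.4 FPKM in Q140 animals and from 22.3 to 31.5 in wild types. Mrps21 ranged from 24.8 to 31.0 FPKM in Q140 animals and from 22.7 to 26.8 in wild types. Each of these 4 overlapped its neighbours in the order. The lowest was Mrpl23, a protein at the exit of the polypeptide tunnel, at 0.657 FPKM, 48.7 times below Mrpl41. Above it came Mrps35 at 1.94 FPKM, Mrpl33 at 2.09 and Mrps10 at 2.56. Mrps35 and Mrpl33 overlapped in their ranges, from 1.78 to 2.19 and from 1.53 to 2.58 FPKM over all animals.

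**Figure D1:**
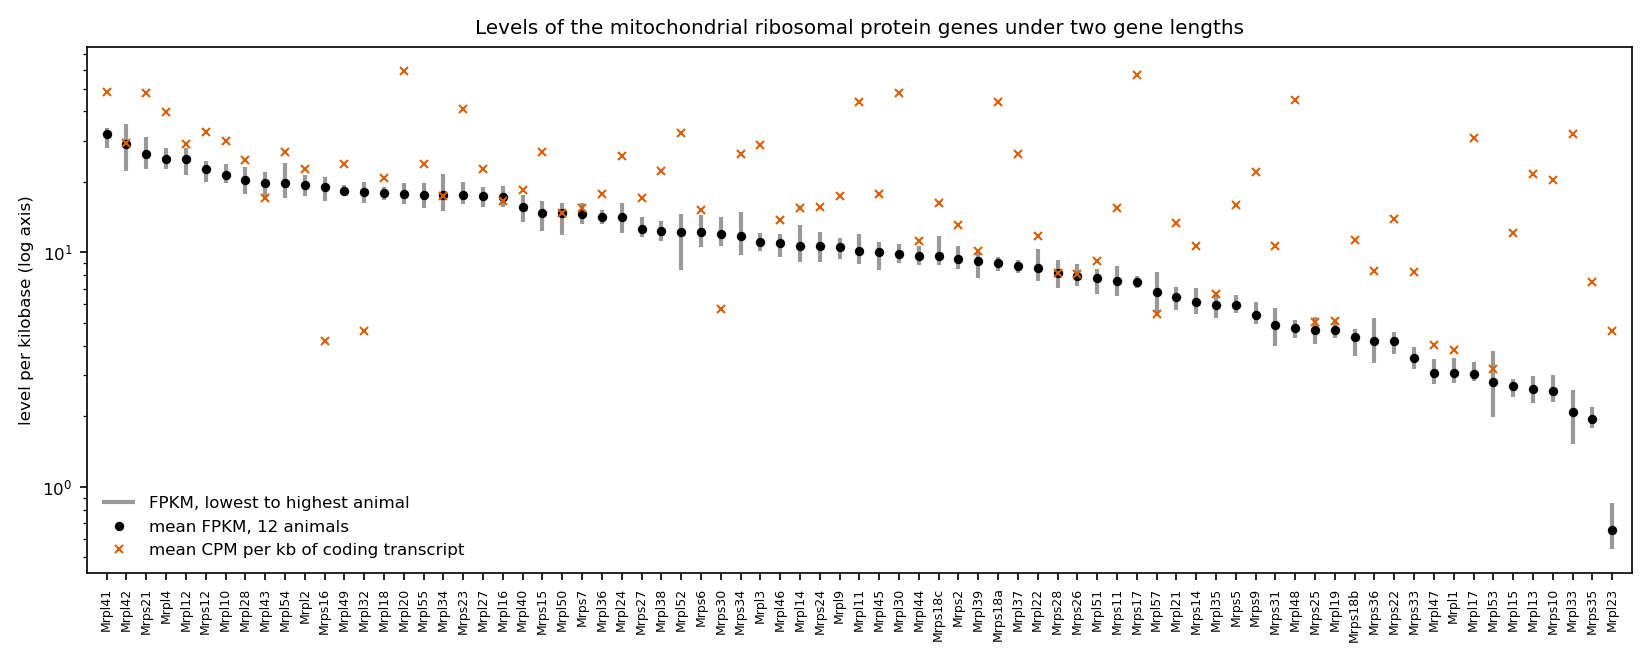
Level of each of the 77 genes on a log axis, ordered by mean FPKM. Black points are means over 12 animals with grey bars from the lowest to the highest animal, and orange crosses are mean CPM per kilobase of the median protein-coding transcript; the crosses leave the black order for genes such as Mrpl33 and Mrps17.

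That order rests on the gene length behind the FPKM, which joins all annotated exons. For 26 members this length was more than 2 times that of the median protein-coding transcript. For Mrpl33 it was 7326 against 478 bases. Per kilobase of coding transcript, the ratio of the highest to the lowest member shrank to 18.7, Mrpl20 stood first at 59.5 CPM per kilobase, followed by Mrps17 at 56.9 and Mrpl41 at 48.3, and Mrpl53 was last at 3.19. Mrpl33 moved to rank 13, with 32.0 CPM per kilobase. Across the 77 genes the orders by both lengths had a Spearman rho of 0.48; the points share the libraries and the read counts. Mrpl41 was among the 3 highest by either length.

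Of the 77 members, 1 rose in Q140 cortex, Mrpl33, and 0 fell by edgeR's quasi-likelihood test at an adjusted p below 0.05, while 76 did not pass. Over all genes tested 11.2% passed, 4.50% higher and 6.69% lower, and in the range of levels that the members span, 10.2% of 10392 genes did. At an unadjusted p below 0.05 the count of members was 11 by edgeR (14.3%, against 26.7% of all genes), 8 by DESeq2 and 13 by limma voom. The estimates were small and mostly above 0. The median log2 fold change of Q140 over wild type was 0.0474, or 3.34% higher, against 0.0045 over all genes, with an interquartile range of the members from 0.0078 to 0.0933. It was positive for 61 members (79.2%, against 51.3% of all genes) and negative for 16. The members were measured in the same animals, so their signs do not count as replicates. Per animal, the median over members of the log2 deviation from the wild type mean ran from 0.005 to 0.0848 in Q140. In wild types it ran from -0.0281 to 0.0277, so the genotypes overlapped. Q140 replicates 1 and 5, at 0.0122 and 0.005, lay within the wild type range, and the other Q140 animals lay above it. The median size of the change without regard to sign was 0.0644 for members, against 0.0933 for genes in the same range of levels.

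The intervals were narrow enough to bound most members. The 95% interval of the fold change lay within 1.2-fold in either direction for 64 of the 77 genes and within 1.1-fold for 10, and for all 77 within 1.5-fold. The median standard error of the log2 fold change was 0.0539, against 0.0727 for genes in the same range of levels. The members also varied little among animals, with a median coefficient of variation of 6.25% in Q140 and 6.14% in wild types. Genes in the same range of levels had a median of 8.30% in wild types. That range runs from the lowest to the highest member, 2.21 to 66.2 CPM. Within it the genes were not matched to the members' levels. The same limit holds for the standard error and the size of the change. Among wild types Mrpl17 varied least, at 1.00%, followed by Mrps10 at 1.73%. The most variable were Mrpl57 at 15.2%, Mrpl52 at 14%, Mrps36 at 10.9% and Mrpl42 at 10.8%.

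**Figure D2:**
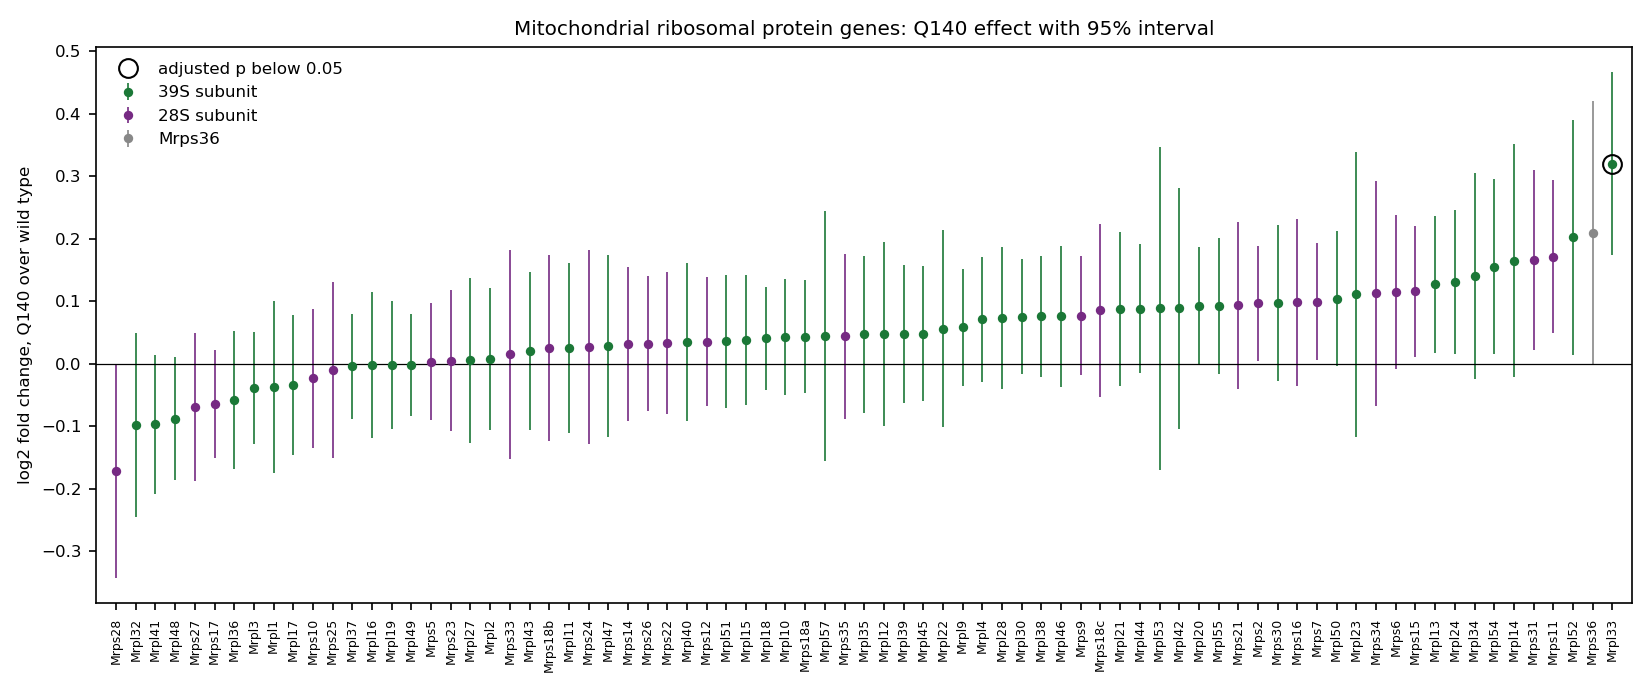
Log2 fold change of Q140 over wild type for each of the 77 genes, with its 95% interval, ordered by size; green marks 39S, purple 28S and grey Mrps36. Points run from -0.17 for Mrps28 to 0.32 for Mrpl33, the only gene ringed as past the threshold, and most intervals cross 0.

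Mrpl33 encodes the 39S counterpart of bacterial protein L33. It lies on chromosome 5 from 31596935 to 31664384 on the plus strand (GENCODE M21, GRCm38; ENSMUSG00000106918), and the RefSeq promoter printed above falls inside that span. The Q140 animals had 18.3, 16.7, 18.2, 16, 15.9 and 16.6 CPM, against 14.3, 13.2, 11.6, 13.6, 13.7 and 15.2 CPM in wild types. The lowest Q140 animal stood above the highest wild type, and it was the only member whose groups did not overlap in this direction; 1.88% of all genes were separated upward and 2.70% downward, the downward count of members being 0. Means were 17 ± 1.06 CPM in Q140 and 13.6 ± 1.2 CPM in wild types (SD, n = 6 each). The gene was 24.8% higher, a log2 fold change of 0.32 (SE 0.0683, 95% interval 0.17 to 0.47, edgeR adjusted p = 0.0093). The counts behind it ran from 326 to 631 reads per animal.

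In both sexes taken apart Mrpl33 was above wild type. Males had 16.6 CPM as the median in Q140, from 15.9 to 18.2, against 13.7 CPM in wild types, from 13.6 to 14.3. Females had 16.7 CPM as the median in Q140, from 16 to 18.3, against 13.2 CPM in wild types, from 11.6 to 15.2. The log2 fold change was 0.28 in males (SE 0.0990, edgeR adjusted p = 0.172) and 0.35 in females (SE 0.0974, adjusted p = 0.0459), and the difference of male minus female effect was -0.07 (95% interval -0.37 to 0.23, adjusted p = 0.892). Mrpl33 passed in 25 of 28 alternative fits, with log2 fold changes from 0.25 to 0.39. It did not pass when the share of mitochondrially encoded reads was added as a covariate (0.25, adjusted p = 0.0605), when the prefix of the animal names was (0.34, adjusted p = 0.109), or when the first number of those names was a block (given with the other alternatives below). That share was 7.02 ± 0.770% in Q140 and 6.36 ± 0.557% in wild types (SD, n = 6 each; p = 0.113 by a two-sided exact permutation test). The labels do not state what the prefix or the number means. Within the prefix RFQ, 3 Q140 animals had 18.2, 15.9 and 16.6 CPM of Mrpl33, against 13.6 CPM in 1 wild type. Within RFckQ, 1 Q140 animal had 16 CPM, against 14.3, 13.2, 11.6 and 13.7 CPM in 4 wild types. RFQ thus holds 1 wild type and RFckQ 1 Q140 animal, and the other animals share no prefix across genotypes. Prefix and genotype therefore cannot be fully told apart. Of the numbers, 2 occur in both genotypes: under 150, 1 Q140 animal had 16 CPM, against 11.6 CPM in 1 wild type, and under 161, 2 Q140 animals had 18.2 and 15.9 CPM, against 13.6 CPM in 1 wild type.

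Mrpl33 shares chromosome 5 with Htt, whose start lies 3.1 Mb beyond its end. Of 195 genes tested within 10 Mb of Htt, 34 passed (17.4%, against 11.2% of all genes), 12 higher and 22 lower. Within 0.5 Mb of Mrpl33, 3 of 25 other tested genes passed, Slc30a3, Gm9924 and Trim54, and all 3 fell. The part that flanking DNA of the knock-in allele plays in Mrpl33 was not tested. Rbks, for ribokinase, overlaps Mrpl33 on the opposite strand and averaged 1.76 CPM in Q140 and 1.53 CPM in wild types (log2 fold change 0.19, SE 0.153, edgeR adjusted p = 0.466). Gm43809 overlaps it on the same strand and had at most 0.0853 CPM in any animal. The deposited count is for the whole gene, so its transcripts cannot be told apart.

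**Figure D3:**
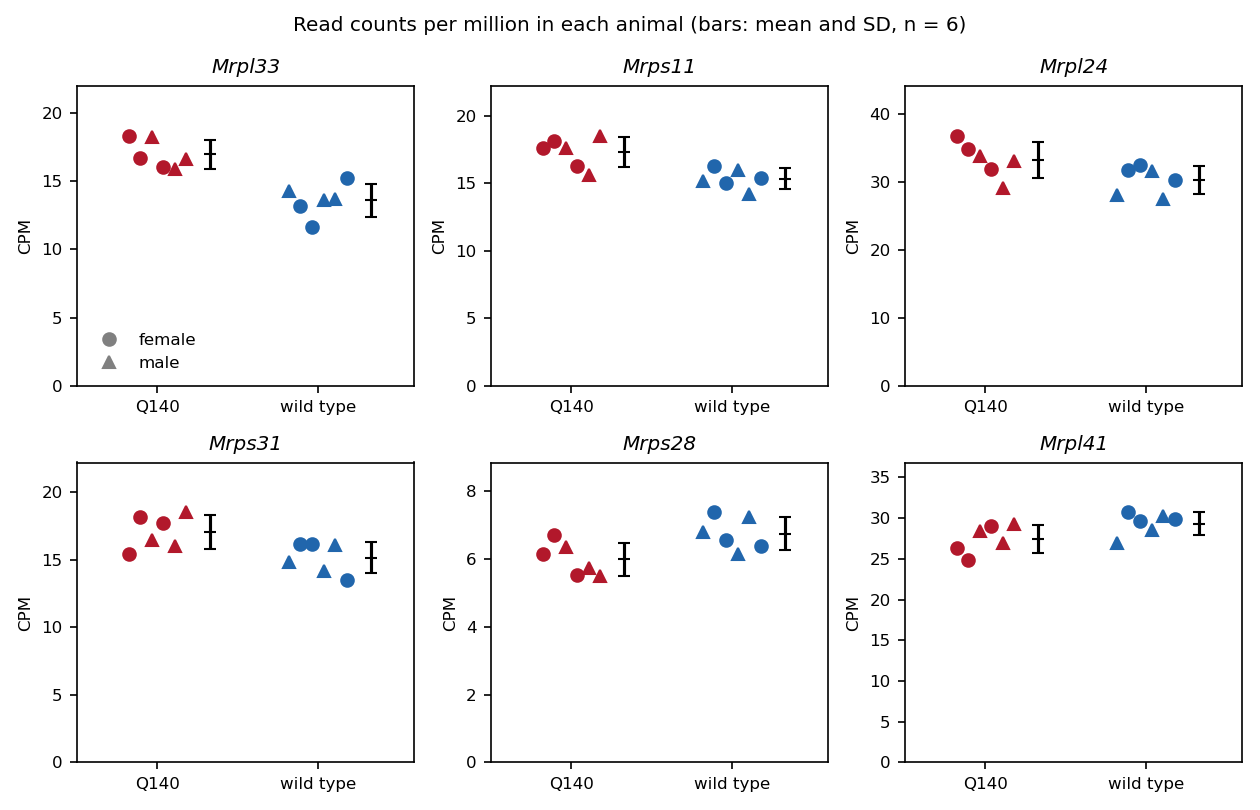
CPM in each animal for 6 of the genes, Q140 on the left in red and wild type on the right in blue, circles for females and triangles for males, with bars for the mean and SD (n = 6). Mrpl33 is the panel in which the genotypes do not overlap; Mrps11, Mrpl24 and Mrps31 lean up, and Mrps28 and Mrpl41 lean down, with overlap.

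The 5 members next in order among those above wild type did not pass. Mrps11, a protein of the 28S platform, had 15.6, 17.6 and 18.5 CPM as lowest, median and highest in Q140, against 14.2, 15.3 and 16.3 CPM in wild types. All 6 Q140 animals stood above the wild type mean, but the lowest of them lay within the wild type range (log2 fold change 0.17, SE 0.0573, edgeR adjusted p = 0.0701). It passed with an adjusted p of 0.0336 without Q140 replicate 5, the lowest of those animals. Its neighbour Mrpl46, of the central protuberance, had 14.7, 16.2 and 16.7 CPM in Q140, against 13.7, 15.5 and 16 CPM in wild types (log2 fold change 0.08, SE 0.0527, edgeR adjusted p = 0.384). The genotypes overlapped for both genes of this pair. With the name prefix as a covariate the log2 fold change of Mrps11 was 0.08.

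Mrps31, a mitochondria-specific 28S protein, had 15.4, 17.1 and 18.5 CPM in Q140, against 13.5, 15.5 and 16.2 CPM in wild types (log2 fold change 0.17, SE 0.0672, edgeR adjusted p = 0.130). Mrpl54, mitochondria-specific and of the 39S subunit, had 15.6, 17.1 and 19.4 CPM in Q140, against 14.2, 15.4 and 16.8 CPM in wild types (log2 fold change 0.16, SE 0.0650, edgeR adjusted p = 0.143). In both, all 6 Q140 animals exceeded the wild type mean while the ranges overlapped. Mrpl24, at the exit of the tunnel through which the new chain leaves, had 29.0, 33.4 and 36.7 CPM in Q140, against 27.5, 31.0 and 32.5 CPM in wild types (log2 fold change 0.13, SE 0.0539, edgeR adjusted p = 0.136). The estimate for Mrpl24 was 0.0005 with the name prefix as a covariate and 0.07 with the share of mitochondrially encoded reads. Mrpl13, counterpart of bacterial L13, had 19.5, 21.6 and 23.5 CPM in Q140, against 18.4, 20.0 and 20.5 CPM in wild types (log2 fold change 0.13, SE 0.0512, edgeR adjusted p = 0.129). For Mrpl24 and Mrpl13, 5 of 6 Q140 animals stood above the wild type mean. Mrpl52 and Mrps36 had larger estimates, 0.20 and 0.21, but wider intervals, from 0.01 to 0.39 and from 0.00 to 0.42, and neither passed.

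Members below wild type were few and none passed. Mrps28, of the small subunit, had 5.51, 5.95 and 6.71 CPM as lowest, median and highest in Q140, against 6.15, 6.67 and 7.38 CPM in wild types. All 6 Q140 animals lay below the wild type mean and the ranges overlapped (log2 fold change -0.17, SE 0.0797, edgeR adjusted p = 0.186). Mrpl48, of the central protuberance, had 35.3, 37.7 and 39.9 CPM in Q140, against 37.4, 39.7 and 43.4 CPM in wild types (log2 fold change -0.09, SE 0.0460, edgeR adjusted p = 0.244). Mrpl41, the member with the highest FPKM, had 24.9, 27.6 and 29.3 CPM in Q140, against 27.0, 29.8 and 30.7 CPM in wild types (log2 fold change -0.10, SE 0.0516, edgeR adjusted p = 0.252). In both, 0 of 6 Q140 animals stood above the wild type mean. Mrps17, Mrpl32 and Mrps27 followed with log2 fold changes of -0.06, -0.10 and -0.07 and edgeR adjusted p-values of 0.335, 0.396 and 0.456. Mrpl32 is the 39S protein matured by the m-AAA protease of the inner membrane, and Mrps27 is an RNA-binding protein of the pentatricopeptide repeat family; both genotypes overlapped for each of the 3. With the name prefix as a covariate the log2 fold changes of Mrpl48, Mrpl41, Mrpl32 and Mrps27 were nearer 0, at -0.03, -0.03, -0.04 and -0.03. With scaling by library size only, where the median of all genes was 0.0511, these 4 and Mrps17 lay between -0.0507 and -0.0175.

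The members were next grouped by their place in the particle. The 50 genes of the 39S subunit had a median log2 fold change of 0.0476, with 39 positive and 1 passed by edgeR. The 26 of the 28S subunit had a median of 0.0345, with 21 positive and 0 passed. At an unadjusted p below 0.05 there were 5 of the 50 and 6 of the 26. Of all genes 51.3% were positive, 11.2% passed and 26.7% had an unadjusted p below 0.05. The sum of FPKM over the 39S genes was 643.8 ± 22.2 in Q140 and 602.6 ± 10.8 in wild types, and over the 28S genes 264.8 ± 10 in Q140 and 246.8 ± 6.53 in wild types (SD, n = 6 each). FPKM is not corrected for library composition, for which the TMM factors averaged 1.02 ± 0.0177 in Q140 animals and 0.984 ± 0.011 in wild types. The ratio of the sums, which that scale does not touch, was 2.43 ± 0.0223 in Q140 and 2.44 ± 0.0585 in wild types, a difference smaller than the spread among animals.

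Within the large subunit, regions with known roles were read apart. The 4 genes of the stalk that recruits translation factors, Mrpl10, Mrpl11, Mrpl12 and Mrpl53, had log2 fold changes between 0.0255 and 0.0886, and 0 passed. Mrpl12, also reported to bind the mitochondrial RNA polymerase, was at 0.05 (SE 0.0686, edgeR adjusted p = 0.706). The 8 genes at the polypeptide exit ran from -0.0344 for Mrpl17 to 0.1312 for Mrpl24, with 7 above 0. The 8 genes of the central protuberance ran from -0.0878 for Mrpl48 to 0.202 for Mrpl52, with 7 above 0. None of these 20 genes passed by edgeR, and 2 had an unadjusted p below 0.05, against 26.7% of all genes. The 46 members with bacterial counterparts had a median of 0.052 with 36 positive, and the 30 mitochondria-specific members 0.0436 with 24 positive. For 12 members, marked by a list that may not be complete, human mutations cause inherited disease of mitochondrial translation. Among these 0 passed, and estimates ran from -0.1711 for Mrps28 to 0.1126 for Mrps34. Of the 12, 3 had an unadjusted p below 0.05 (Mrps2, Mrps7 and Mrps28), a share no higher than the 26.7% of all genes.

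Males and females differed in 0 members by edgeR with genotype as a covariate, against 0.654% of all genes. At an unadjusted p below 0.05 there were 2 members (2.60%, against 13.5% of all genes), 2 by DESeq2 and 6 by limma voom. Mrps6, a 28S platform protein, had 11.7, 12.2 and 13.5 CPM in Q140 males and 11.2, 12.2 and 12.3 CPM in wild type males, against 13.7, 14 and 15.2 CPM in Q140 females and 12.8 CPM in all 3 wild type females. The log2 fold change of male over female was -0.15 (SE 0.0576, edgeR adjusted p = 0.271), and the sexes did not overlap within either genotype. Mrpl53 had 2.35, 2.64 and 2.93 CPM in Q140 males and 2.09, 2.27 and 2.38 CPM in wild type males, against 1.57, 2.13 and 2.16 CPM in Q140 females and 1.89, 2.02 and 2.14 CPM in wild type females. Its log2 fold change was 0.30 (SE 0.121, edgeR adjusted p = 0.305). For Mrpl53 the sexes overlapped in wild types and not in Q140. Mrps6 and Mrpl53 were picked by their p, and the share of all genes whose groups of 3 separate was not counted.

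The Q140 effect was also estimated within each sex. In males 0 members passed, against 1.40% of all genes, and 14 had an unadjusted p below 0.05 (18.2%, against 16.6% of all). In females 1 member passed, Mrpl33, against 7.05% of all genes, and 4 had an unadjusted p below 0.05 (5.19%, against 23.7%). The median log2 fold change was 0.0675 in males, with 55 of 77 positive, and 0.0316 in females, with 49 positive, against medians of all genes of -0.0001 and 0.0044. With 3 animals a group the median standard error was 0.0756 in males and 0.0743 in females. The difference between the sexes in the Q140 effect, tested itself, passed for 0 members and 0 of 17725 genes by edgeR, and 7 members had an unadjusted p below 0.05 (9.09%, against 9.21% of all genes), 4 by DESeq2 and 7 by limma voom.

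Mrpl57 and Mrps34 had the smallest p-values for that difference. Mrpl57, a mitochondria-specific 39S protein, had 14.7, 16.1 and 18.5 CPM in Q140 males, against 12.8, 13.6 and 13.7 CPM in wild type males, with no overlap. In females the order was turned, with 13.5, 16.2 and 16.3 CPM in Q140, against 16.7, 17.7 and 18.2 CPM in wild types, also with no overlap. The log2 fold changes were 0.29 in males (SE 0.0989) and -0.19 in females (SE 0.0962), differing by 0.49 (SE 0.138, edgeR adjusted p = 0.471). Mrps34, whose loss in humans causes a Leigh-like disease, had 23.0, 27.1 and 29.9 CPM in Q140 males, against 20.2, 21.0 and 22.7 CPM in wild type males. In females it had 21.8, 23.6 and 25.1 CPM in Q140, against 23.7, 24.5 and 26.7 CPM in wild types. The groups did not overlap in males and overlapped in females, and the effects, 0.32 in males and -0.09 in females, differed by 0.40 (SE 0.133, edgeR adjusted p = 0.471). For both genes every wild type male lay below every wild type female.

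**Figure D4:**
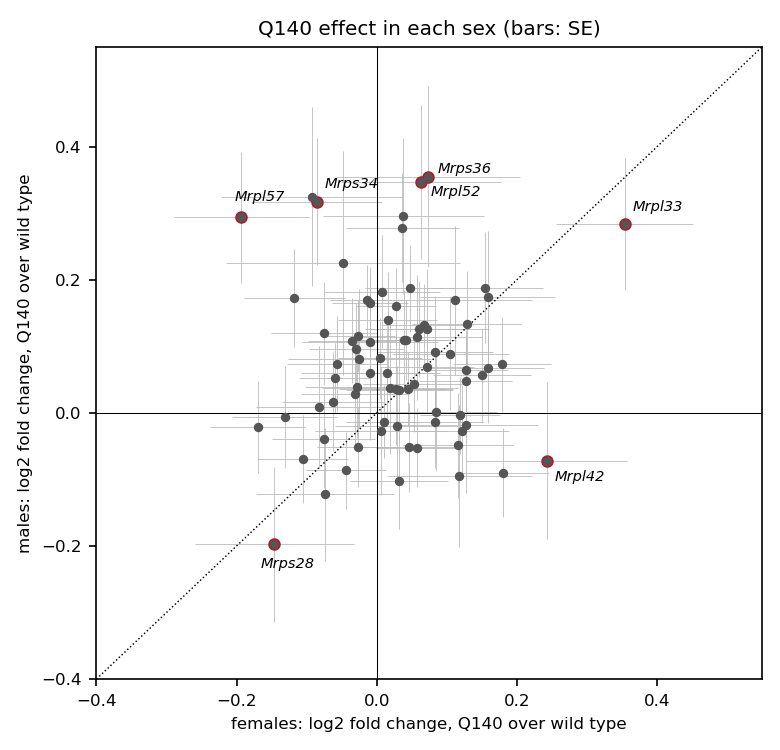
Log2 fold change of Q140 over wild type in females (horizontal) and in males (vertical) for each of the 77 genes, with bars for 1 SE; the dotted line marks equal effects and the red-edged, labelled points are genes named for their position. Mrpl33 lies upper right near the line and Mrpl57 upper left, at -0.19 in females and 0.29 in males.

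The genes that work with the mitochondrial ribosome were taken as lists beside its proteins. Of the list of 5 mitoribosomal genes with other symbols 0 passed (edgeR; 2 at an unadjusted p below 0.05). Gadd45gip1, a 39S protein, had 23.7 to 26.0 CPM in Q140, against 19.3 to 24.9 CPM in wild types, overlapping (log2 fold change 0.18, SE 0.0553, edgeR adjusted p = 0.0553). Aurkaip1 was at 0.09, Chchd1 at 0.08, Dap3 at -0.02 and Ptcd3 at -0.06, all of the small subunit. Ict1, an older symbol of Mrpl58 and so outside the rule, is not in that list; it averaged 33 ± 1.5 CPM in Q140 and 33.9 ± 1.88 CPM in wild types (SD, n = 6 each; log2 fold change -0.04, SE 0.0473, edgeR adjusted p = 0.627). Of 29 tested assembly factors 0 rose and 1 fell (3.45%, against 11.2% of all genes). The 1 that fell was Mettl17, which is needed for maturation of the small subunit. Mettl17 averaged 21.3 ± 2.74 CPM in Q140 and 26.8 ± 1.93 CPM in wild types (SD, n = 6 each; log2 fold change -0.33, SE 0.066, edgeR adjusted p = 0.00596), while Mrm2, a methyltransferase of the large rRNA, was at 0.23 and Clpp at 0.11 without passing.

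Of 16 tested translation factors 2 rose and 1 fell (18.8%, against 11.2% of all genes). Metap1d, which removes the initiator methionine, averaged 30.9 ± 2.12 CPM in Q140 and 26.8 ± 1.47 CPM in wild types (log2 fold change 0.20, SE 0.0421, edgeR adjusted p = 0.00761). Mtrf1l, the main release factor, averaged 8.23 ± 0.982 CPM in Q140 and 6.64 ± 0.347 CPM in wild types (log2 fold change 0.31, SE 0.0861, edgeR adjusted p = 0.0327). Gfm2, which splits the ribosome after release, averaged 29.5 ± 1.08 CPM in Q140 and 32.5 ± 1.67 CPM in wild types (log2 fold change -0.14, SE 0.0429, edgeR adjusted p = 0.0499). The groups did not overlap for Metap1d and overlapped for Mtrf1l and Gfm2. Of 20 genes for tRNA charging 0 rose and 2 fell (10%, near the 11.2% of all genes). Gatb, of the enzyme that makes glutaminyl-tRNA by amidation, was at -0.25 (SE 0.0509, edgeR adjusted p = 0.0072), and Rars2, the arginyl-tRNA synthetase, at -0.20 (SE 0.0524, edgeR adjusted p = 0.027), both without overlap of the groups. Mars2 was at -0.15 and did not pass.

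The RNAs of the ribosome and its messages did not pass. The small rRNA mt-Rnr1 averaged 3330 ± 503 CPM in Q140 and 3130 ± 307 CPM in wild types, and the large rRNA mt-Rnr2 4190 ± 629 CPM in Q140 and 3950 ± 516 CPM in wild types (SD, n = 6 each; edgeR adjusted p = 0.545 and 0.614). Of the 13 mitochondrially encoded messages 0 passed and 1 had an unadjusted p below 0.05, with a median log2 fold change of 0.1543 and 12 positive; mt-Nd3 was at 0.27, mt-Co2 at 0.22 and mt-Nd4 at 0.15. For 24 genes of mitochondrial DNA upkeep and transcription 0 passed (edgeR; 1 at an unadjusted p below 0.05), and Polg, the DNA polymerase, at -0.12 had the smallest p. Of 29 import genes 1 rose, Timm21, of the inner membrane translocase, at 0.27 (SE 0.0831, edgeR adjusted p = 0.0488), and 0 fell. That is 3.45%, against 11.2% of all genes.

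The cytosolic ribosome and the nuclear genes of oxidative phosphorylation give the scale for the members. Of 84 tested cytosolic ribosomal protein genes 17 rose (20.2%) and 0 fell, with a median log2 fold change of 0.142 and 76 positive; Rps9 was at 0.21. Of 80 tested nuclear oxidative phosphorylation genes 8 rose (10%) and 0 fell, with a median of 0.0741 and 75 positive; Uqcrh and Ndufb8 were each at 0.20 and Ndufa2 at 0.19. The members, with 1.30% passed and a median of 0.0474, were lower than both by these descriptions, and the difference between lists was not tested. Among genes that start beside a member, 0 of 30 tested partners passed in either direction, against 11.2% of all genes. The 30 include Mrpl46 and Mrps11, which are partners of each other and members themselves.

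**Figure D5:**
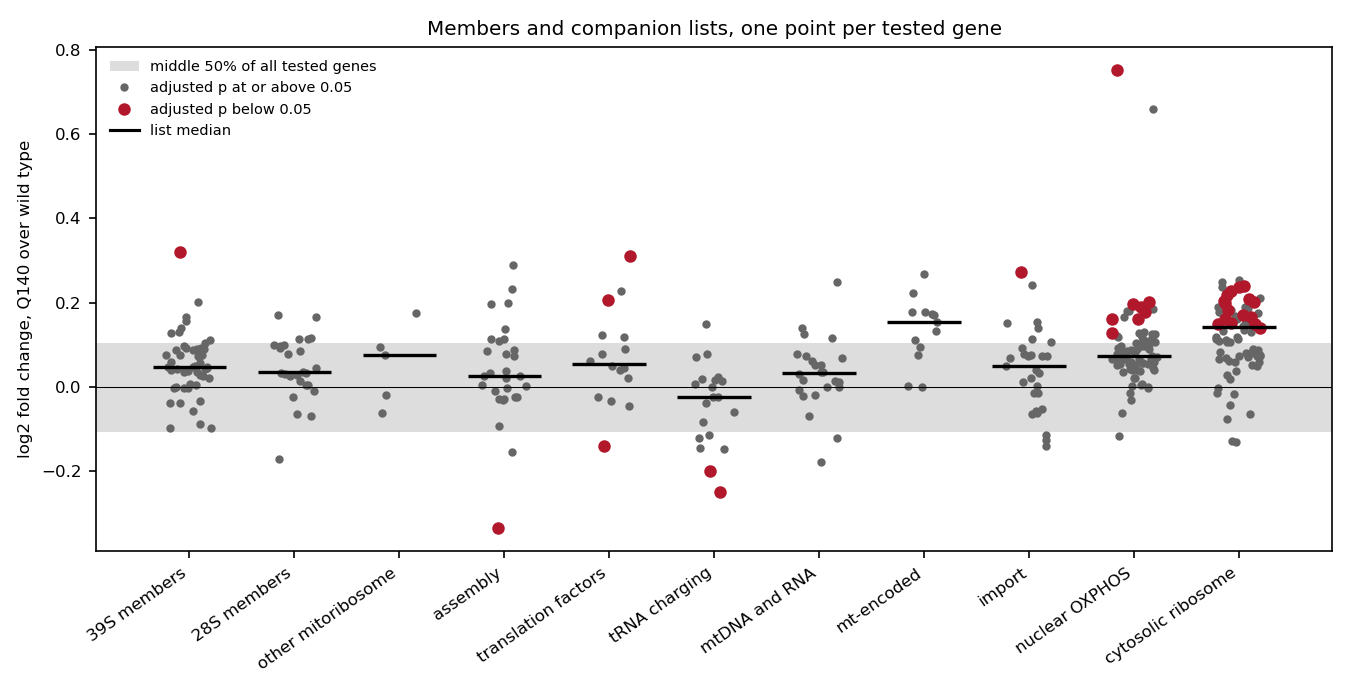
Log2 fold change of Q140 over wild type, 1 point per tested gene, for the 39S and 28S members and the companion lists; red points passed the threshold, black bars are medians and the grey band holds the middle 50% of all genes. The member columns hold 1 red point, Mrpl33, and the cytosolic ribosome column holds 17.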

How the data were processed

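Each of the 12 libraries is a separate animal, so p-values measure the spread between animals. RNA was extracted with a Qiagen RNeasy kit and sequenced from Illumina TruSeq stranded libraries, per the labels' protocols. The authors deposited whole-number counts of reads per gene, not normalized, and a table of FPKM, which matched those counts divided by column total and gene length (coefficient of variation of the implied length at most 5.3e-07%). STAR 2.7.5c, SAMtools 1.10, HTSeq 0.12.3 and the builds GRCm38 and mm10 are named in the submitters' processing notes. How the counting treated strand, and with which annotation release, is not given in the sources used here.

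The quasi-likelihood test of edgeR 4.0.16 (R 4.3.3) was applied to the counts after TMM scaling and the default expression filter, which kept 17725 genes, with sex as a covariate. Effects within each sex, and their difference, came from a fit with 4 genotype-by-sex groups; the comparison of males over females adjusted for genotype. All p-values are two-sided, with Benjamini-Hochberg adjustment across the tested genes and a threshold of 0.05. CPM uses TMM-scaled library sizes. No pair of libraries of a genotype agreed within sampling noise (chi-square per gene at least 6.36). The fits were also run on simulated counts, but no outcome is given here and no conclusion is drawn from that run. GENCODE M21 matched all 77 members and 48349 of all identifiers. RefSeq promoter windows matched 68.

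The members, roles and companion lists were chosen with earlier results of these data known. Named with values were members past the threshold, the 6 with the smallest p each way, the 4 highest and 4 lowest by FPKM, the 4 most and 2 least variable, the 2 with the smallest p for sex and for the difference between sexes, and up to 3 genes per companion list; a few further members were named after their values were seen. Alternatives used DESeq2 1.42.0, limma 3.58.1 and sva 3.50.0 and are given below.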

Additional observations from a re-analysis of the deposited data

Results flagged for a closer look

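Mrpl4, a 39S protein gene, stood apart in Q140 replicate 5, with 30.0 CPM against 33.1 to 34.8 CPM in the other Q140 animals and 29.4 to 33.8 CPM in wild types. The gap to the nearest Q140 animal took 0.646 of the group's range, above Dixon's critical value for 6 samples. Of 56 groups examined for the named members 1 was marked in this way, and of 154 groups over all members 5 were, where chance marks about 1 in 20. Mrpl57 moved in opposite directions in the sexes, higher than wild type in all 3 Q140 males and lower in all 3 Q140 females. The difference of the effects, male minus female, was 0.4869 on the log2 scale (SE 0.138, edgeR adjusted p = 0.471) and did not pass the test. Mrpl57 was picked by its p, and how often groups of 3 separate over all genes was not counted.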

How the results depend on the processing

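Of 28 alternative fits for genotype, Mrpl33 passed in 25, and 0 members fell in any of them. The count of members that rose was 7 with scaling by library size only (Mrpl13, Mrpl24, Mrpl33, Mrps11, Mrps15, Mrps2 and Mrps7), 3 by limma on log2(FPKM + 0.1), 10 on log2(FPKM + 1), 2 with a surrogate variable, 0 with the name prefix as a covariate and 0 with the share of mitochondrially encoded reads; all genes called then numbered 2445, 1939, 2260, 2340, 134 and 881. Leaving out each animal gave 1 to 2, with 2 without Q140 replicate 5, where Mrps11 passed too. The members' median log2 fold change was 0.0941 with library size only, where the median of all genes was 0.0511, and 0.0919 on log2(FPKM + 0.1), where it was 0.0499; relative to all genes the shift was as in the main fit. Otherwise it stayed between 0.0359 and 0.0831, and between 0.041 and 0.06 without single animals. Signs near 0 turned for Mrpl17 (0.0124 with library size only, 0.0083 and 0.007 on log2 FPKM plus 0.1 and plus 1), for Mrps10 (0.0235, 0.0227 and 0.0178 in the same 3 fits, 0.0427 with the prefix, 0.0022 with length and GC offsets, 0.0039 with length offsets), for Mrps35 (-0.0153 with the prefix) and for Mrpl57 (-0.0235 without Q140 replicate 3, and up to 0.1105 without replicate 1); the cause was not tested. Of 672 values of the other named members, 658 kept their sign. Members called for sex or for the difference between sexes stayed at 0 in the 16 alternatives run. The labels give no replicate numbers, but the animal names hold a first number of unstated meaning, and 5 animals (3 Q140, 2 wild type) carry 1 of 2 numbers found in both genotypes. With this number as a block in place of sex, an alternative chosen after seeing the data that leaves 3 residual degrees of freedom, 0 members rose, 0 fell and 1 of all genes passed. The members' median was 0.0568, and Mrpl33 was at 0.3864 (edgeR adjusted p = 0.315). Under the block the sign turned for Mrpl24 (-0.0187), Mrps10 (0.0019) and Mrps27 (0.0368). The deviations of same-numbered animals of both genotypes from their group means correlated, across genes, at 0.035 to 0.378 in 3 pairs (median 0.248). In 15 other pairs of the same sex they correlated at -0.003 to 0.322 (median 0.15). With 3 pairs these values cannot decide whether the number marks a pairing, and the main fit does not use it. Depth limits Mrpl53, with as few as 50 reads in an animal, more than the other members.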
